A study of Bos taurus with 12 samples.

Results

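The medium methylated DNA of tender and tough beef was compared in 4 of the 12 libraries of the series, MTE_1 and MTE_2 from 2 tender animals and MTO_1 and MTO_2 from 2 tough animals. All were Angus steers raised together, about a year old and on the same pelleted diet, and they were taken from the extremes of Warner-Bratzler shear force, the force needed to cut through cooked meat. The methods name the muscle longissimus lumborum and the labels name it longissimus dorsi. The labels give no treatment or genetic change between the groups, which were chosen by toughness. Crude fat also differed between the sets of animals from which these were drawn, so toughness and fat content cannot be told apart here. Peaks on chromosomes 1 to 29 that shared 1 bp or more in any of the 4 lists were joined, which gave 50592 regions. Coordinates are those of bosTau8.

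DNA methylation in mammals lies mostly on cytosines that precede a guanine (CpG), and dense methylation of a promoter goes with silencing of its gene. In MBD-seq the DNA is sheared, fragments with methylated CpGs are captured by a methyl-CpG binding protein, and the captured fragments are released in steps of rising salt. Fragments with more methylated CpGs are held more firmly. The sources differ on which salt step gave the high methylated part, and the medium eluate is the middle step in either description. The medium eluate thus holds fragments of intermediate methylation, and a region can pass from one eluate to the next when its methylation shifts. Whole muscle was used, so a shift within muscle fibers and a different mix of cell types cannot be told apart. The labelled tissue could not be checked by marker genes, since peak lists hold no expression values. Gene names, exons and sequences under the regions were not analysed here, because no annotation or genome of bosTau8 was used.

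A peak in these lists is a stretch where tags pile up above the local background, and its pileup is the number of overlapping tags at the summit. Mapped tags numbered 11889327 and 12635437 in MTE and 14981895 and 13439772 in MTO. After removal of tags at the same position, 6589423 and 6886676 tags were left in MTE, and 6010993 and 5969045 in MTO. The share left was 55.4% and 54.5% in the tender libraries, and 40.1% and 44.4% in the tough libraries. Thus the tough libraries were mapped more deeply yet had fewer distinct tags, and the groups did not overlap in either number. An exact permutation test of the share left gave p = 0.333 (two-sided), the smallest value that 2 libraries against 2 allow. The part of this difference in the results below was not tested.

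The tender libraries had more peaks than the tough libraries, and the surplus lay in the weak peaks. MTE_1 had 33562 peaks and MTE_2 had 35688, whereas MTO_1 had 23982 and MTO_2 had 24797. The mean was 34625 ± 1503 in MTE and 24390 ± 576 in MTO (SD, n = 2), and the log2 ratio of tough over tender was -0.51 (two-sided exact permutation test, p = 0.333). Peaks of pileup under 30 numbered 27550 and 29287 in MTE against 17979 and 19104 in MTO. In contrast, peaks of pileup 100 or more numbered 5059 and 5407 in MTE and 5341 and 5056 in MTO, so that the groups overlapped (exact permutation test, p = 0.667). These strong peaks made up 15.1% and 15.2% of the tender lists and 22.3% and 20.4% of the tough lists. Few peaks lay between, with 953 and 994 in MTE and 662 and 637 in MTO. The limits of 30 and 100 were set after the values were seen.

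**Figure D1:**
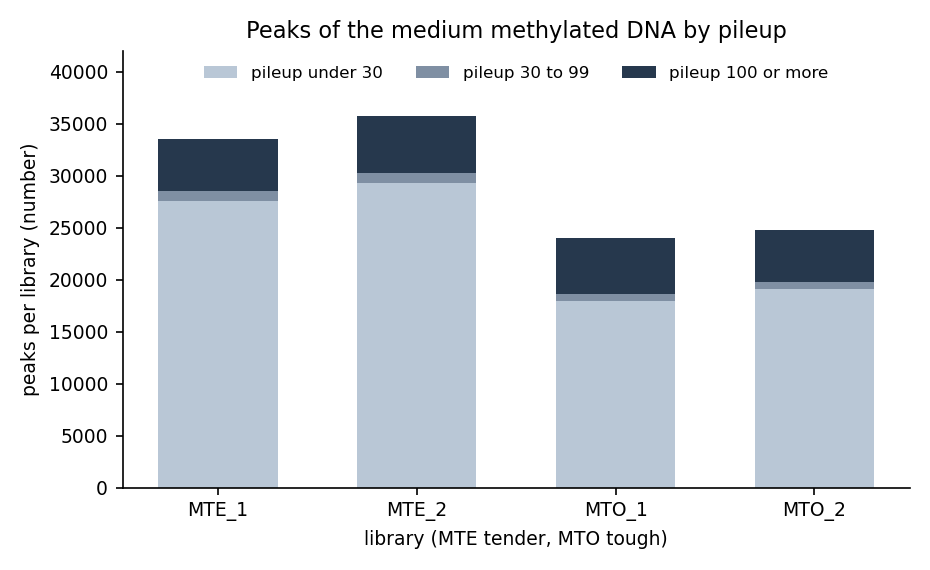
Number of peaks on chromosomes 1 to 29 in each library of the medium methylated DNA, stacked by pileup (tags at the summit). The dark parts, pileup 100 or more, lie between 5056 and 5407 in all 4 libraries, and the pale parts, pileup under 30, are taller in both tender libraries.

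The strong peaks were similar in number but not in height. Their median pileup was 164 and 163 in MTE, and 205 and 206 in MTO. Only 1 tag per position and strand was kept, so a pileup cannot exceed 2 times the fragment length that MACS2 assigned to the library. That length was 157 and 146 bp in MTE and 162 and 175 bp in MTO, which sets a limit of 314, 292, 324 and 350 tags. Relative to this limit the median strong peak stood at 52.2% and 55.8% in MTE and at 63.3% and 58.9% in MTO. The tough libraries were thus higher on both scales, with no overlap between the groups. The median pileup over all peaks was 13 in each of the 4 libraries.

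Of the 50592 regions, 13777 (27.2%) had a peak in all 4 libraries and 20035 (39.6%) in a single library. A region was called tender-specific when MTE_1 and MTE_2 had a peak in it and neither MTO library had one, and tough-specific in the reverse case. There were 4466 tender-specific regions (8.83% of all) and 918 tough-specific regions (1.81%), together 10.6% of the regions. Hence 82.9% of the specific regions were tender-specific. The same 4 libraries can be split in 2 other ways, each with 1 tender and 1 tough library on either side. The split of MTE_1 and MTO_1 from MTE_2 and MTO_2 gave 906 and 1326 specific regions, and the split of MTE_1 and MTO_2 from MTE_2 and MTO_1 gave 1091 and 1229. Specific regions of the split by toughness were therefore 2.32 times as many as in the larger crossed split. The tough-specific regions taken alone were fewer than 3 of the 4 crossed counts.

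**Figure D2:**
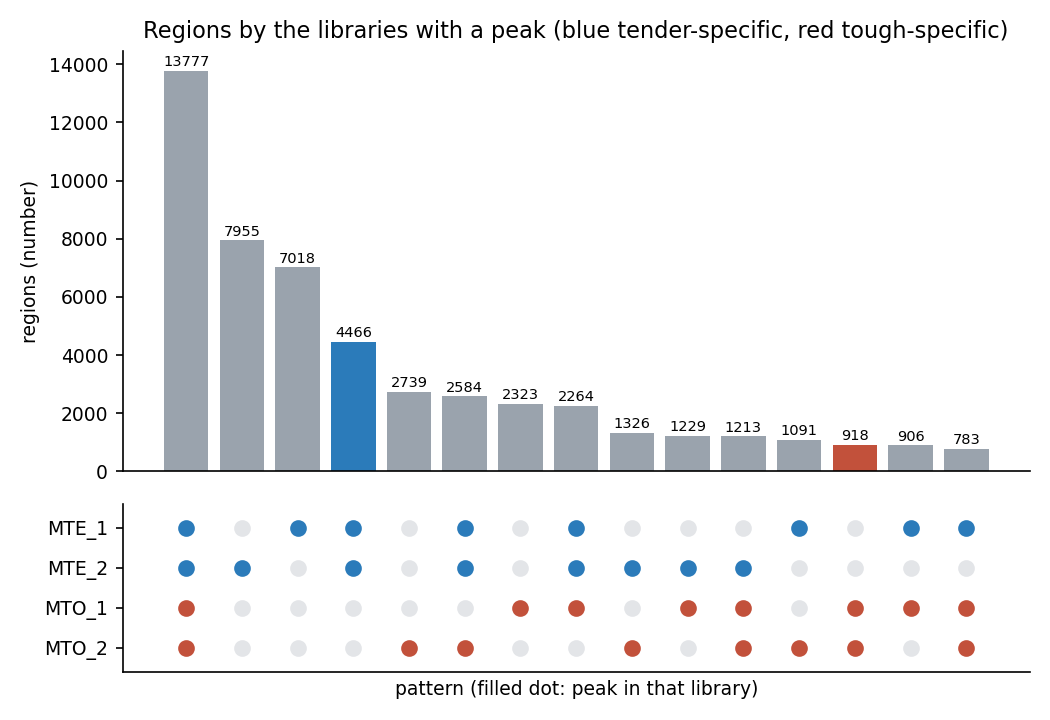
Number of regions of the medium methylated DNA for each pattern of presence, with filled dots for the libraries that have a peak. The tender-specific pattern (4466 regions) is the most frequent of the 6 patterns with 2 libraries, and the tough-specific pattern (918 regions) is close to the 4 crossed patterns (906 to 1326 regions).

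The direction of the specific regions depended on the length of the lists. When each library gave the same number of peaks, the strongest by p-value, 1965 regions were tender-specific and 2252 tough-specific, so that 46.6% were tender-specific. That setting removes the surplus of weak peaks in MTE by its construction. The split by toughness still gave 2.13 times the specific regions of the larger crossed split. With any 1 library left out, tender-specific regions outnumbered tough-specific ones, although the numbers rose to 6757 to 12506 and 1721 to 3702, as only 1 library of a group then had to have or lack the peak.

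The specific regions were weak. The median pileup of the tender-specific regions was 11 in MTE_1 and 11 in MTE_2, and that of the tough-specific regions was 10 in MTO_1 and 11 in MTO_2. A pileup of 100 or more was found at 118 and 114 of the 4466 tender-specific regions, and at 101 and 104 of the 918 tough-specific regions. The authors also called peaks on the merged reads of the 2 libraries of each kind of beef. The merged list of the tough beef had a peak in 66.1% of the tender-specific regions, and the merged list of the tender beef had one in 72.8% of the tough-specific regions. Over all regions these shares were 78.9% and 94.6%. Most specific regions were thus not empty in the other beef once its reads were pooled, though its merged list covered them less often than all regions. Without any peak in the other merged list there remained 1516 tender-specific and 250 tough-specific regions, of which 85.8% were tender-specific. The merged list of the tender beef covered more of the regions, so this share is not free of the imbalance between the lists.

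Regions with the highest fold enrichment in the weaker of their 2 libraries were named for each group. Fold enrichment is the ratio of the pileup to the local background, as computed by the authors' MACS2 run. Among the tender-specific regions, chr24:11096587-11096816 came first, with a fold enrichment of 14.0 in MTE_1 and 15.8 in MTE_2 at pileups of 19 and 21. It was followed by chr3:83718358-83718601 (13.6 and 14.4), chr21:5679220-5679491 (14.3 and 12.9), chr6:74232272-74232513 (12.9 and 12.3) and chr5:66693534-66693822 (12.2 and 13.0). The regions on chromosomes 21 and 6 had no peak in the merged list of the tough beef. None of the 5 had a peak in any of the 4 libraries of the high methylated DNA, whereas 4 of them had one in 3 or 4 of the 4 libraries of the low methylated DNA. The region on chromosome 6 had no peak in any library of another eluate.

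Among the tough-specific regions, chr3:34956597-34956944 came first, with a fold enrichment of 11.1 in MTO_1 and 13.5 in MTO_2 at pileups of 15 and 20. It was followed by chr18:51862247-51862540 (10.9 and 13.6), chr5:92608434-92608684 (10.9 and 10.6), chr11:105404407-105404675 (9.47 and 11.5) and chr3:9037490-9037829 (9.46 and 12.2). All 5 had a peak in the merged list of the tender beef. In the high methylated DNA, 4 of the 5 had a peak in 2 or 3 of the 4 libraries, and the region on chromosome 5 had none. In the low methylated DNA all 5 had a peak. The region on chromosome 5 had it in 3 of the 4 libraries, that on chromosome 11 in 2 and each of the others in 1. A fold enrichment of 10 or more in both libraries was reached by 78 of the 4466 tender-specific regions (1.75%) and by 3 of the 918 tough-specific regions (0.33%). The median of the lower fold enrichment was 6.39 and 5.82.

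The other eluates, which the choice of the regions did not use, held different shares of the specific regions. Tender-specific regions of the medium methylated DNA had a peak in 3.25% and 5.46% of cases in HTE_1 and HTE_2, and in 2.49% and 3.72% in HTO_1 and HTO_2, the libraries of the high methylated DNA. Tough-specific regions had one in 14.5% and 18.7% of cases in HTE, and in 18.8% and 22.1% in HTO. The tough-specific share was therefore the higher one of the 2 in each of the 4 high libraries. Over all regions 20.9% and 24.4% had one in HTE, and 19.5% and 22.7% in HTO, above both specific shares in each library. Regions of the crossed patterns lay between, from 6.37% in HTO_1 to 11.2% in HTE_2. A test over samples was not run for these shares, and regions are not replicates. The classes also differed in strength, with a pileup of 100 or more at 101 and 104 of the 918 tough-specific and at 118 and 114 of the 4466 tender-specific regions. Shares in the other eluates were not compared at equal pileup.

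In the low methylated DNA the tender-specific share was the higher one in each of the 4 libraries. Tender-specific regions had a peak in 11.1% and 18.9% of cases in LTE_1 and LTE_2, and in 30.03% and 35.3% in LTO_1 and LTO_2. Tough-specific regions had one in 3.38% and 6.21% of cases in LTE, and in 28.3% and 18.6% in LTO. In LTO_1 the intervals of the 2 shares overlapped (Wilson 95%, 28.7 to 31.4% and 25.5 to 31.3%, counting error only). The crossed regions had one in 4.96% and 9.58% of cases in LTE, and in 23.9% and 24.2% in LTO. They lay between the 2 specific shares in LTE_1, LTE_2 and LTO_2, and below both in LTO_1. Over all regions 14.2% and 20.8% had one in LTE, and 33.8% and 36.4% in LTO, above both specific shares in each library. Taking the 4 libraries of an eluate together, 90.2% of the tender-specific and 65.1% of the tough-specific regions had no peak in any high library, while 46.2% and 63.4% had none in any low library. Over all regions these shares were 68.1% and 49.0%, close to the tough-specific share for the high and to the tender-specific share for the low libraries. The low lists of the tough beef were longer than those of the tender beef, with 27783 and 28599 peaks against 9555 and 16881, so the shares are to be read within a library.

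**Figure D3:**
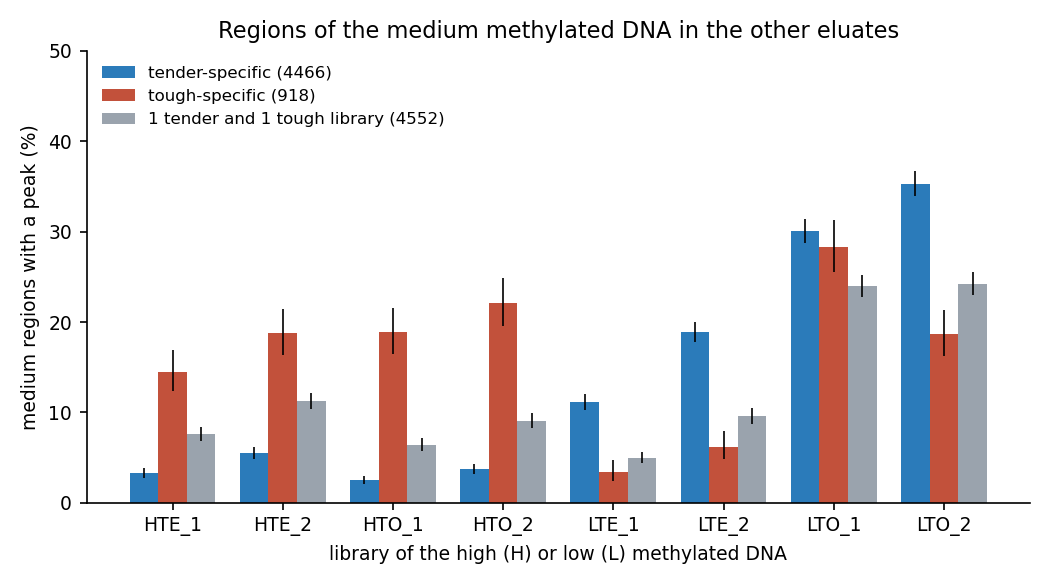
Share of the tender-specific, tough-specific and crossed regions of the medium methylated DNA that had a peak in each library of the high and of the low methylated DNA, with Wilson 95% intervals. In the 4 high libraries the tough-specific bars (14.5 to 22.1%) are above the tender-specific bars (2.49 to 5.46%), and in the 4 low libraries the tender-specific bars are the higher ones. The share over all regions, not drawn, was above both in each library.

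The surplus in the tender beef was spread over the genome. On 29 of the 29 chromosomes each tender library had more peaks than each tough library, and tender-specific regions outnumbered tough-specific ones. The tender-specific share was highest on chromosome 22, with 177 tender-specific and 16 tough-specific regions (91.7%, Wilson 95% interval 87.0 to 94.8%). Chromosome 2 (88.1%) and chromosome 13 (87.9%) came next. The share was lowest on chromosome 6, with 133 and 44 regions (75.1%, 68.3 to 80.9%), then on chromosome 9 (75.7%) and chromosome 20 (79.1%). The intervals cover counting error only.

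In windows of 1 Mb, 1385 of the 2521 windows with a region had more tender-specific and 165 had more tough-specific regions. The most tender-specific regions were found near the end of chromosome 22 (60000001 to 61000000), where 20 were tender-specific and 0 tough-specific, and where the 4 libraries had 90, 103, 63 and 46 peaks. Chromosome 11 (106000001 to 107000000) held 19 and 2, and chromosome 17 (74000001 to 75000000) held 19 and 3. The window with the most tough-specific regions, 10 against 0 tender-specific, was the first 1 Mb of chromosome 19, with 48 and 54 peaks in MTE and 63 and 55 in MTO. This order of the libraries was opposite to that of the whole lists. The next windows, on chromosome 6 (108000001 to 109000000) and chromosome 23 (50000001 to 51000000), each held 9 tough-specific regions but also 15 and 12 tender-specific ones. Within 5 Mb of the last peak of a chromosome lay 26.1% of the tender-specific, 30.1% of the tough-specific and 29.4% of the crossed regions, beside 24.0% of all regions and 17.3% of those with a peak in all 4 libraries. Hence location towards the chromosome end was shared by specific and crossed regions.

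At the 13777 regions with a peak in all 4 libraries, the order of the regions by pileup differed between tender and tough beef. Pileup was not divided by library size, so each region was ranked by pileup among the 13777 regions within its own library. The rank of both tough libraries was above that of both tender libraries at 4313 regions (31.3%), and below at 3256 regions (23.6%), so that the groups did not overlap at 54.9% of the regions. In the crossed splits the pairs did not overlap at 21.5% and 23.5%. A region can separate in only a single split, so these shares fall where the share of the split by toughness rises. They are not an independent background, and no preference among the 3 splits would give equal shares. The balance between the directions depended on the scale. With the rank taken among all peaks of a library, 1539 regions were higher in the tough and 6523 in the tender beef, which turns the direction, and with log2 pileup centred on the median of each library they were 6360 and 1939. On these scales the groups did not overlap at 58.5% and 60.2% of the regions. By rank among the shared regions, 25 of 29 chromosomes had more regions that were higher in the tough beef, with chromosomes 2, 5, 27 and 29 as the exceptions. Ranks are relative, so regions that fall lift others, and these counts do not weigh the size of a shift. The median tough minus tender difference over all shared regions was 0.81 percentiles.

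The separation was strongest at the strong regions. Of the 4577 regions with a mean pileup of 100 or more, 2299 (50.2%) ranked higher in the tough and 1306 (28.5%) in the tender beef, so that 78.8% did not overlap. In the crossed splits 9.42% and 11.7% of these regions did not overlap, which is low by construction where the split by toughness is high. The median pileup of these regions was 166 in MTE_1, 166 in MTE_2, 210 in MTO_1 and 210 in MTO_2. The 8624 regions with a mean pileup under 30 were almost evenly divided, with 1830 higher in the tough and 1765 in the tender beef, that is 41.7% without overlap against 28.2% and 30.1% in the crossed splits.

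**Figure D4:**
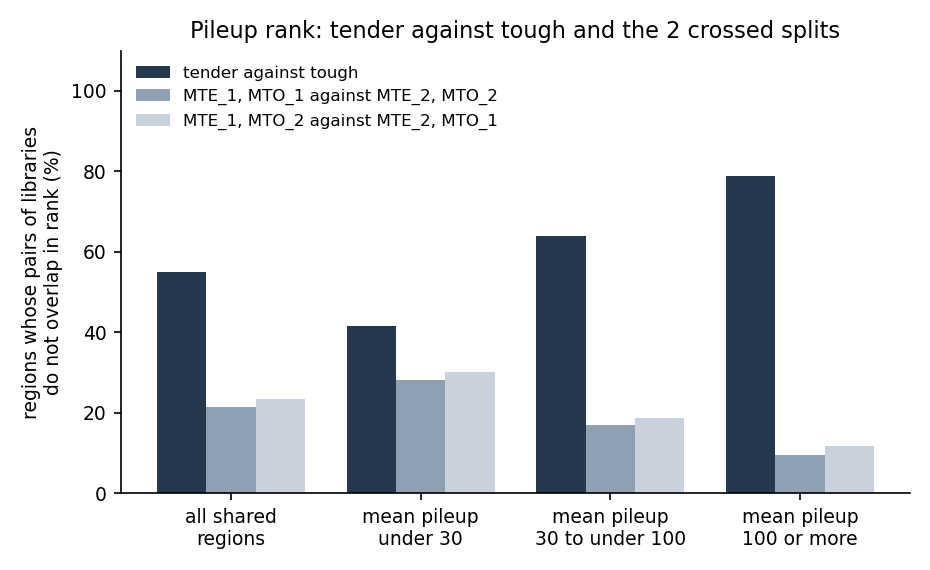
Share of the regions with a peak in all 4 libraries whose 2 pairs of libraries do not overlap in pileup rank, for the split by toughness and for the 2 crossed splits, over all such regions and by mean pileup. The split by toughness gives 54.9% over all regions and 78.8% at a mean pileup of 100 or more, where the crossed splits give 9.42% and 11.7%. The shares of the 3 splits are bound to each other, since a region can separate in only a single split.

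The limma fit over all 13777 regions, with a Benjamini-Hochberg threshold of 0.05, called 254 regions higher in the tough beef (1.84%) and 597 higher in the tender beef (4.33%). The smallest adjusted p was 0.0065 by limma. At an unadjusted p under 0.05 there were 3189 regions, against 269 and 341 in the crossed splits, where limma called 0 regions. Each side of a crossed split holds a tender and a tough library, so any difference by toughness widens the spread there. The crossed fits are therefore no measure of false calls. Of the called regions, 247 of the 254 and 588 of the 597 had a mean pileup of 100 or more. The calls depended on the fit, since limma without a trend of the spread on the level called 0 regions, with 2800 at an unadjusted p under 0.05, and the trend was chosen after both counts were seen. They also depended on the tough libraries, as limma called 0 regions without MTO replicate 1 and 0 without MTO replicate 2, with 2699 and 2854 at an unadjusted p under 0.05. On the rank of fold enrichment in place of pileup limma called 0 regions (1793 at an unadjusted p under 0.05), with fold enrichment of at least 3 it called 159, and on log2 pileup it called 4318 higher in the tough and 364 higher in the tender beef.

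The called regions with the largest difference on the normal score of the rank, on which limma was run, were named. This score stretches the ends of the order, so a small step in percentile near the top counts as a large one. Among those higher in the tough beef, chr28:40844107-40844348 had a pileup of 10 and 10 in MTE and 20 and 22 in MTO, which raised it from the percentiles 9.70 and 9.44 to 58.4 and 59.98 of its library. The limma adjusted p was 0.037. The region chr27:5380502-5380754 had a pileup of 13 and 12 in MTE and 25 and 21 in MTO. The third, chr1:135832735-135833691, was a wide region of 957 bp with a pileup of 173 and 168 in MTE and 262 and 278 in MTO (limma adjusted p = 0.0076). It had a peak in all 8 libraries of the other eluates.

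In the other direction, chr12:85835303-85835602 had a pileup of 27 and 22 in MTE and 8 and 8 in MTO (limma adjusted p = 0.041). The region chr20:69556007-69556361 had 22 and 26 in MTE and 8 and 9 in MTO. At chr1:61603246-61604780, a region of 1535 bp, the pileup was 297 and 280 in MTE and 238 and 247 in MTO (limma adjusted p = 0.038), a tough minus tender difference of -5.996 percentiles against a median of -14.8 over the regions called higher in the tender beef. The tender pileups there were close to the limit of 314 and 292 tags. Fold enrichment at this region went the other way, with 8.36 and 8.42 in MTE and 10.4 and 9.57 in MTO. At the regions on chromosomes 12 and 20 it was higher in MTE, as the pileup was.

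Regions with strong peaks were clustered, and in 6 dense windows nearly all of them ranked higher in the tender beef. In 13 windows of 1 Mb there were at least 50 shared regions with a mean pileup of 100 or more, which held 1369 of the 4577 such regions. These windows were chosen by this number after the values were seen. In 6 of the 13 windows over 90% of the regions ranked higher in the tender beef, and in the other 7 more than 55% ranked higher in the tough beef. The 6 and the 7 were sorted by these same ranks, so the direction of the pooled counts below follows from the sorting. Over the 6 windows, 774 of 796 regions ranked higher in the tender beef and 1 in the tough beef. Over the 7 windows, 406 of 573 (70.9%) ranked higher in the tough beef and 21 in the tender beef, beside 59.0% and 15.9% of the strong regions outside the 13 windows. The share in the window of chromosome 9, 55.8%, was below that of the regions outside. Regions of a window are neighbours and not independent of each other. The peaks were called with no control library, and the repeat content and copy number of these windows were not analysed.

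The windows in which the tender beef ranked higher were on chromosomes 27, 8, 1, 29, 5 and 7. At chr27:28461197-28937893, 252 of 266 strong regions ranked higher in the tender and 0 in the tough beef. At chr8:74363520-74804664 it was 200 of 202, at chr1:145293517-145452491 it was 104 of 104, and at chr29:30224947-30968943 it was 86 of 87. The windows chr5:114106286-114241683 and chr7:105824478-105933505 had 78 of 81 and 54 of 56. In the crossed splits at most 10 of the 266 regions of chromosome 27 did not overlap, and 0 of the 104 regions of chromosome 1. The counts above nearly fix these, as a region can separate in only a single split. These 6 windows held 413 of the 597 regions called higher in the tender beef, whereas the 7 windows held 65 of the 254 called higher in the tough beef.

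The windows in which the tough beef ranked higher were on chromosomes 3, 8, 25, 27, 6 and 9, with 2 of them on chromosome 8. At chr3:82708540-82912389, 86 of 130 strong regions ranked higher in the tough and 6 in the tender beef. At chr8:56713174-56855489 it was 79 and 4 of 109, at chr8:110659245-110763657 it was 51 and 5 of 74, and at chr25:30154377-30371564 it was 57 and 3 of 76. At chr27:37444914-37651086 it was 59 and 0 of 74, at chr6:17921878-17999655 it was 45 and 2 of 58, and at chr9:45015098-45378586 it was 29 and 1 of 52.

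The 2 kinds of window differed in the pileup itself. At chr27:28461197-28937893 the median pileup was 175 and 169 in MTE and 163.5 and 170 in MTO, so the groups overlapped in tags although not in rank. At chr1:145293517-145452491 it was 243 and 234 in MTE and 211.5 and 228 in MTO, lower in both tough libraries. At chr8:56713174-56855489 it was 170 and 172 in MTE and 235 and 231 in MTO. In each of the 7 windows both tough medians were above both tender medians. In the 6 windows both tough medians were below both tender medians at chromosomes 1, 29 and 7, and the groups overlapped at chromosomes 27, 8 and 5. Outside the 13 windows, 1892 of 3208 strong regions (59.0%) ranked higher in the tough and 511 (15.9%) in the tender beef. The median tough minus tender difference of these 3208 regions was 2.42 percentiles, against -11.6 in the 6 windows and 5.01 in the 7 windows. The fall in the 6 windows by itself lifts ranks elsewhere. With the strong regions of the 13 windows left out, 372 of the regions called by limma remained, with no new fit.

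**Figure D5:**
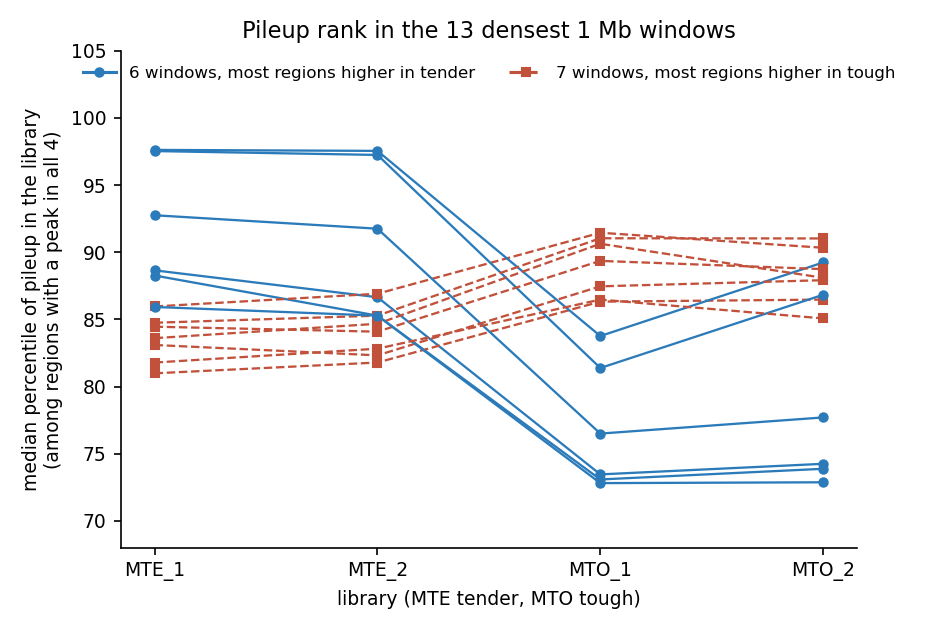
Median percentile of the pileup of the strong regions in each of the 13 windows, for each library of the medium methylated DNA; the percentile is taken among the 13777 regions with a peak in all 4 libraries, and lines join the values of a window. Full lines with circles fall from MTE to MTO and broken lines with squares rise, and the axis starts at 68. The kind of line was given by the direction of these same ranks.

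The regions of the 6 windows were also wider, with a median width of 402 to 461 bp per window against 284 to 302 bp in the 7 windows. Their median fold enrichment in the 4 libraries was 2.03 to 3.22, and 1.92 to 2.09 in the 7 windows, beside 6.50 to 6.82 over all peaks of a library. Most of those peaks had a pileup under 30, and the value of strong regions outside the windows is not given here. The low fold enrichment is therefore not shown to be particular to these windows. In each of the 6 windows both tough medians of fold enrichment were above both tender medians, opposite to the rank. At chr27:28461197-28937893 they were 2.61 and 2.69 in MTE and 2.92 and 2.80 in MTO. In none of the 7 windows were both tough medians above both tender ones. MACS2 takes the background from the surrounding 10000 bp, which in these clusters holds other strong peaks. In the low methylated DNA, LTE_1 had only 1 to 10 strong peaks in each of the 7 windows and LTE_2 27 to 63, while LTO_1 had 50 to 124 and LTO_2 50 to 123. At chr27:28461197-28937893 the 4 low libraries had 219, 300, 272 and 303 strong peaks, each more than the 142, 208, 146 and 159 of the high libraries. Tags per library were not equalized in these counts.

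The width of the shared regions differed less. The median width was 295 and 289 bp in MTE and 285 and 302 bp in MTO, a log2 difference of 0.0069 with overlapping groups (two-sided exact permutation test, p = 1.0). No region was called on width by limma, with 1325 at an unadjusted p under 0.05, against 581 and 609 in the crossed splits. The crossed fits again hold any difference by toughness in their spread. After centring on the median of each library, 3141 regions (22.8%) were wider in both tough libraries and 2680 (19.5%) in both tender libraries, that is 42.3% without overlap, against 26.6% and 31.1% in the crossed splits. As for the ranks, the shares of the 3 splits are bound to each other. The balance of the directions was not stable: without MTO replicate 1, 5551 regions were wider in the tough and 5822 in the tender beef, and among regions of mean pileup under 30 it was 1449 and 1880. Rank and width moved together at part of the regions. Of the 4313 regions that ranked higher in the tough beef, 39.3% were also wider and 7.12% narrower there, and of the 3256 that ranked higher in the tender beef, 37.9% were wider and 11.1% narrower in the tender beef.

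The largest differences of width were found at 5 regions of pileup under 30 in each library and at 1 of intermediate pileup, chr2:146406-147085 (48 and 64 in MTE, 24 and 23 in MTO). The region chr25:35003511-35004274 was covered over 732 and 764 bp in MTE and 193 and 176 bp in MTO, chr2:146406-147085 over 556 and 680 against 162 and 175 bp, and chr19:41429896-41430620 over 541 and 725 against 162 and 188 bp. Without MTE replicate 2 the log2 width difference of the region on chromosome 2 went from -1.88 to -0.27, and that of the region on chromosome 19 from -1.85 to -1.06. In the opposite direction, chr17:54061451-54062027 was covered over 157 and 146 bp in MTE and 498 and 558 bp in MTO. Likewise chr24:7265636-7266434 had 157 and 219 against 561 and 622 bp (a log2 difference of 1.66, and 1.01 without MTO replicate 2), and chr11:11340977-11341648 had 194 and 176 against 431 and 672 bp. The narrowest values equal the fragment length of the library, which is the shortest peak MACS2 reports, and the adjusted p of these 6 regions by limma was 0.27 to 0.31.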

How the data were processed

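MBD-seq libraries of medium methylated DNA from 2 tender and 2 tough animals were compared. Per the methods and the submitters' processing notes, SOAPnuke filtered the reads, BWA 0.7.7 placed them on bosTau8, and from those that mapped uniquely the authors made peak lists by MACS2 2.1.1.20160309 with no control library (q-value of 0.01, 1 tag per position, background of 10000 bp). The merged lists were called with MACS2 2.1.0.20150731. The deposited lists give pileup, a signal not divided by library size, the fold over local background, a ratio named fold enrichment, and −log10 of the p-value and q-value. The read counts of the DESeq test in the study were not analysed here.

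Regions, presence, widths and ranks were computed with Python 3.11.15, pandas 2.3.3, numpy 2.4.6 and scipy 1.17.1. Within a region, the highest pileup and the bp covered by peaks of a library were used. Pileup ranks, as normal scores, and log2 widths, centred per library, were fitted by limma 3.58.1 (R 4.3.3) with a trend of the spread on the level and Benjamini-Hochberg adjustment. The code was tested on simulated data, which led to the trend. No 2 lists were identical (at most 11 peaks with the same bounds). Depth was 5969045 to 6886676 distinct tags. P-values rest on 2 animals a group. Peaks on X and the mitochondrial genome were left out.

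Regions named were the 5 of highest lower fold enrichment per group, the 3 of largest difference per direction for rank and width, 3 windows and 3 chromosomes per direction. The dense windows fall outside this rule. The comparison and its measures were chosen with earlier results of these data known. Alternatives were a −log10 q minimum of 5, a fold enrichment minimum of 3, overlap of 50%, peaks up to 500 bp apart joined, equal peak number, X added, each library left out, the replicate number as a block, single-peak regions and other scales. Added after seeing the data were limma without trend, width over fragment length, regions of pileup under 30 and shared regions less the strong ones of the dense windows.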

Additional observations from a re-analysis of the deposited data

Results flagged for a closer look

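The number of peaks moved in opposite directions between tough and tender beef in 2 eluates. In the medium methylated DNA each tough library had fewer peaks than each tender library, by -0.51 on the log2 scale (tough minus tender), and in the low methylated DNA each tough library had more, by 1.15 on that scale. This difference between the eluates was not tested.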

How the results depend on the processing

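Of the alternative values of the comparisons, 88 kept their sign and stayed within 1.5 times or 1 SD, 41 moved further and 5 turned their sign. Most of these values are counts, which have no sign to turn, so a turned balance between 2 counts stands among the 41. The 5 that turned were all the median width difference. Calls on width, 0 in each setting, stand among the 88. None of the 215 alternative values of the named regions reversed, although the width difference at chr2:146406-147085 went from -1.88 to -0.27 without MTE replicate 2. The named regions were picked for presence in a single group or for the largest differences, so their sign had little room to turn. With a −log10 q minimum of 5 the width regions on chromosomes 17 and 24 had no value. With equal peak number those on chromosomes 17, 24 and 11 had none. The log2 ratio of peaks was -0.57 with fold enrichment of at least 3, -0.34 per tag left and -0.32 in bp covered. With fold enrichment of at least 3, 159 regions were called on pileup rank and 2638 ranked higher in the tough beef. Equal peak number gave 1965 tender-specific and 2252 tough-specific regions. Calls on pileup rank were 4682 with log2 pileup (4318 higher in tough, 364 in tender), 1280 with the rank among all peaks (98 and 1182), 0 with the rank of fold enrichment (1793 at an unadjusted p under 0.05) and 0 by limma without a trend. Of the main calls, 372 remained when the strong regions of the dense windows were left out, with no new fit. Regions higher in the tender beef were 1939 with log2 pileup and 6523 with the rank among all peaks, where 1539 were higher in the tough. Among regions of mean pileup under 30 alone, 1826 were higher in the tough and 1768 in the tender beef. The median width difference, within the spread, turned to -0.033 with fold enrichment of at least 3, -0.047 with peaks up to 500 bp apart joined, -0.0056 without MTE replicate 2, -0.029 without MTO replicate 2 and -0.15 when width was divided by fragment length. The causes were not tested.

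With 1 library left out, tender-specific regions were 6757 to 12506, tough-specific regions 1721 to 3702, calls on pileup rank 0 to 1038, regions higher in the tough beef 6277 to 6939 and in the tender beef 4929 to 5632, and regions wider in the tough beef 5404 to 6446 and in the tender beef 4748 to 5822. The balance of the widths turned without MTO replicate 1 (5551 wider in the tough and 5822 in the tender beef). The lone library of a group was assumed to vary like the others, and the crossed splits could not be formed with 3 libraries. The median width difference was then -0.029 to 0.049 and the log2 ratio of peaks -0.55 to -0.46. With the replicate number as a block, 629 regions were called on pileup rank by limma (131 higher in tough, 498 in tender) and 0 on width. The numbers name different animals, and libraries with the same number did not deviate together (correlation of -0.021 for rank and -0.019 for width). With 2 animals a group no exact test can go below p = 0.333, weak peaks depend on depth, and the limit of 1 tag per position compresses strong pileups.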
